A study of Mus musculus with 21 samples.

Results

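MBT-family chromatin readers and 2 partner proteins, the lysine demethylase Kdm1a and the DNA-binding factor Rbpj, were followed through mammary tumors of mice with and without a RhoC transgene. The 9 genes were L3mbtl1, L3mbtl2, L3mbtl3, L3mbtl4, Sfmbt1, Sfmbt2, Scmh1, Kdm1a and Rbpj, out of 49652 genes in the count files. L3mbtl3 was chosen on its difference between the 2 cohorts, so its levels there are described without a test; the other 8 genes were chosen by name as its family members and partners. Reads in 7 of the 9 genes passed the filter on low counts, as did 19315 genes in all.

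Bulk total RNA was sequenced from 21 mammary tumors of virgin female mice. The 9 control tumors came from 9 mice, 7 of genotype Gata4(loxP/+);FloxNeoNeuNT;MMTV-CreNLST and 2 (N-15 and N-17) of genotype FloxNeoNeuNT;MMTV-CreNLST. The 12 RhoC tumors came from 8 mice of genotype R26(RhoC/+);FloxNeoNeuNT;MMTV-CreNLST, of which P497 gave 4 tumors and N9255 gave 2; R-18 has no mouse name in its label and was counted as a mouse of its own. All 21 therefore carried FloxNeoNeuNT, an activated Neu cDNA in the Erbb2 locus behind a removable stop, and MMTV-CreNLST, a Cre driven from a mammary tumor virus promoter. By the study's account this Cre line appears less active, or active in fewer cells of the mammary epithelium, than other MMTV-Cre lines. The Gata4 allele was present only in controls and the RhoC allele, mouse RhoC followed by IRES-eGFP in Rosa26, only in the RhoC cohort. Ages were not given in the labels. The study reports that tumors arose at much younger ages in its RhoC mice than in its controls. Age could not be adjusted for, so cohort and age cannot be told apart here. The comparison asked which transcripts differed between Neu-driven tumors with and without added RhoC.

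MBT proteins carry malignant brain tumor repeats, pockets that hold mono- or dimethylated lysine, and most of them take part in gene repression. L3mbtl3 binds Rbpj, the DNA-binding factor of the Notch pathway, and brings in Kdm1a, which removes methyl groups from histone H3 lysine 4, so that Notch target genes are kept silent when Notch is not active. L3mbtl3 also brings proteins with methylated lysines to a Cul4-Ddb1 ubiquitin ligase through Dcaf5. L3mbtl2 is a subunit of a Polycomb complex with Mga and E2f6, Scmh1 belongs to canonical Polycomb repressive complexes, Sfmbt1 is found with Kdm1a-CoREST, and Sfmbt2, a gene imprinted in the placenta, binds Yy1. Bulk tumor RNA cannot tell fewer cells of a type from less RNA per cell.

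L3mbtl3 lies on the minus strand of chromosome 10 at chr10:26274468-26375971 (GRCm38, GENCODE M21) and spans 101.5 kb. RefSeq gives it 2 start sites. The stretch around the upstream one is shown because it is the start region of the gene that leads these results, with GC boxes (GGGCGG on either strand) in capitals, and the first Rbpj promoter is shown because it is the only one of the 13 member promoters with 2 copies of the core that Rbpj itself recognises (TGGGAA on either strand), here in capitals. Both are RefSeq sequences of build GRCm38.p6, written 5′ to 3′ on the strand of the gene, at chr10:26375170-26375469 (minus strand) and chr5:53590096-53590395 (plus strand).
L3mbtl3: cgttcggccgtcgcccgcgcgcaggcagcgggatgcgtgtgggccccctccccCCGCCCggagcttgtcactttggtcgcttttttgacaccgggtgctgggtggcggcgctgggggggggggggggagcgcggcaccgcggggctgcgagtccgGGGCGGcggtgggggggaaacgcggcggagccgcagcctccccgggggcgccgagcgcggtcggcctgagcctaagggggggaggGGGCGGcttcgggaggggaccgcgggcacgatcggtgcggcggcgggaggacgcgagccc
Rbpj: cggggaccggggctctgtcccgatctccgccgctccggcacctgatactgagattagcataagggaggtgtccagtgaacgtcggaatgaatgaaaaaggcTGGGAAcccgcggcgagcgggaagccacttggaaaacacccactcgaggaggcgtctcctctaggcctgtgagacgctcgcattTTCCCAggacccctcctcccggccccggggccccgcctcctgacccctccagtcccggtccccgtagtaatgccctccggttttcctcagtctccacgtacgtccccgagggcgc
The L3mbtl3 sequence held 3 GC boxes, 197, 95 and 10 bases upstream of the start, and 44 CpG dinucleotides, more than 97.8% of the 32851 promoters of the same length, whose median was 7. GC boxes were present in 35.7% of all promoters and in 8 of the 13 promoters of the 9 genes. The Rbpj core was present in 25.6% of all promoters and in 3 of the 13, those of L3mbtl1 and Rbpj. In the first Rbpj promoter the copies began 149 and 65 bases upstream of the start. Neither L3mbtl3 promoter contained it. These are letter matches within 300 bases and say nothing of binding.

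The libraries held 47309780 to 100741339 counted reads per tumor. Erbb2, the locus of the Neu allele, ranged from 57.9 to 2725 CPM (counts scaled to library size by TMM) in controls and from 256 to 1851 in RhoC tumors; control N-15 was the lowest, while all other tumors were at 256 CPM or above. Rhoc averaged 77.7 ± 53.7 CPM (SD, n = 9) in controls and 88.8 ± 33.5 (SD, n = 12) in RhoC tumors. The medians were 50.7 and 88.2 CPM, and the ranges 25.98 to 172 and 22.8 to 148. Of the RhoC tumors, 11 of 12 exceeded the control median and 0 the highest control. The difference did not pass the test (log2 fold change 0.19, SE 0.34, adjusted p = 0.774, edgeR). The RhoC tumor with the lowest value, R-2, was below every control, so the cohorts are named here by their labels, and a direction from control to RhoC is a direction between labels. Gata4 had no read in 4 controls and 7 RhoC tumors and was not tested. Across all genes 43 of 19315, or 0.223%, differed between the cohorts at an adjusted p under 0.05, 18 higher (0.0932%) and 25 lower in RhoC tumors, which became 7 and 20 with library-size scaling, 706 and 500 with DESeq2, and 0 and 3 with counts summed over each mouse. All tumors of one cohort lay above all of the other for 0.0155% of genes.

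The luminal keratin and adhesion genes used as epithelial markers were high in both cohorts, with summed levels of 1903 to 6442 CPM in controls and 1452 to 3805 in RhoC tumors, and had negative fold changes for 9 of 9 genes, none of which passed the test (median -0.30, smallest adjusted p = 0.381). Basal epithelial markers (Krt5, Krt14, Krt17, Trp63, Oxtr, Acta2, Myh11) had positive fold changes for 7 of 7 genes, but none passed the test (smallest adjusted p = 0.31), and their summed level ran from 105 to 3029 CPM (median 186) in controls and from 49.8 to 17220 (median 439) in RhoC tumors. Squamous keratinocyte markers summed to 14.3 to 1509 CPM in controls (median 32.6) and 2.95 to 7715 in RhoC tumors (median 44.3). Of 4 tested genes 3 had positive fold changes, with a median of 2.24 (log2), and 0 passed the test. The other, Krt10, was at -5.07 (SE 1.11, adjusted p = 0.0536, edgeR), from 38.0 ± 93.6 CPM (SD) in controls and 1.13 ± 0.639 in RhoC tumors.

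L3mbtl3 was at 14.95 CPM in the lowest control, 18.6 at the median and 30.2 in the highest, and at 25.6 CPM in the lowest RhoC tumor, 39.7 at the median and 52.7 in the highest. The cohorts overlapped through 3 tumors: 10 of 12 RhoC tumors stood above the highest control, N-9, and the other 2, R-7 at 26.4 and R-21 at 25.6 CPM, stood above the remaining 8 controls. On average L3mbtl3 was at 19.6 ± 4.83 CPM (SD, n = 9) in controls and 38.2 ± 8.30 (SD, n = 12) in RhoC tumors, a log2 fold change of 0.96 (SE 0.16), or 1.95-fold. These values are those on which the gene was chosen. Leaving out any 1 tumor kept the log2 fold change between 0.91 and 1.05, and summing the counts of each mouse gave 0.87.

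Within the RhoC cohort L3mbtl3 also varied between tumors of the same mouse. In mouse P497 it ran from 35.0 to 52.7 CPM over 4 tumors, a 1.504-fold range, and in mouse N9255 it was 50.9 CPM in R-6 and 26.4 in R-7, a 1.93-fold range. R-13 and R-6, which the study's sample list names as squamous cell carcinomas, had the highest L3mbtl3 of all 21 tumors, while R-14, the other tumor so named, was at 35.0 CPM, below the cohort median. Without these 3 tumors the log2 fold change was 0.86.

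**Figure D1:**
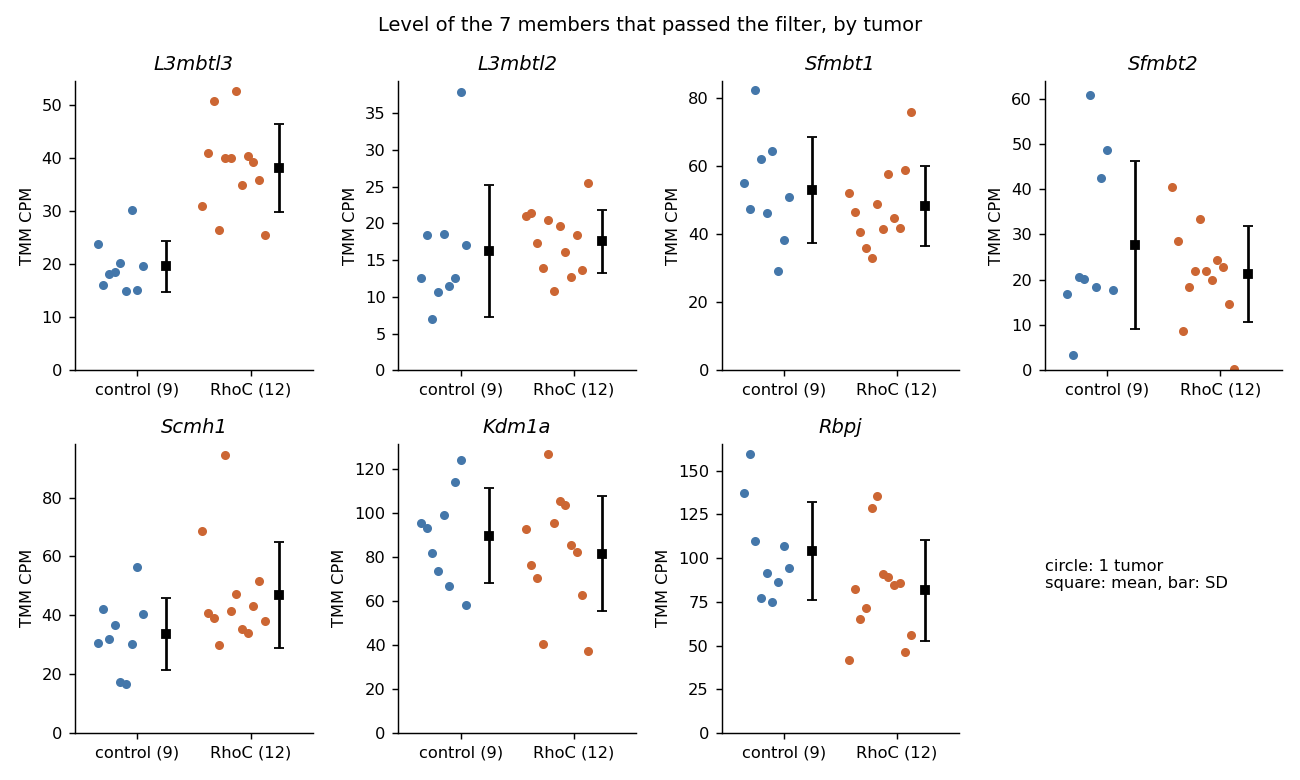
Level of the 7 genes that passed the filter, in TMM-scaled CPM (vertical axis, linear), for 9 control tumors (blue) and 12 RhoC tumors (orange); each circle is a tumor, squares are means and bars are SD. L3mbtl3 is the gene whose RhoC tumors sit mostly above the controls, and the other 6 panels show broad overlap, with N-15 high for L3mbtl2 and R-21 near 0 for Sfmbt2.

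The other members of the L3MBTL group showed no such separation. L3mbtl2 was at 6.99, 12.6 and 37.9 CPM in the lowest, median and highest control and at 10.75, 17.9 and 25.5 in RhoC tumors. Its means of 16.2 ± 8.98 (SD, n = 9) and 17.6 ± 4.30 (SD, n = 12) gave 0.11 on the log2 scale (SE 0.24, 95% interval -0.37 to 0.60, adjusted p = 0.807, edgeR). The highest value belonged to control N-15; the next control was at 18.6 CPM, and without N-15 the control mean was 13.5 ± 4.13 (SD, n = 8) and the log2 fold change 0.38. Of the 22 genes with readable levels within 0.5 Mb of L3mbtl2, 19 were above their own median in N-15, with a median deviation of 1.01 on the log2 scale, where L3mbtl2 itself deviated by 1.152. Control N-4, the lowest for L3mbtl2, deviated by -1.28 and its neighbours by a median of -0.75.

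L3mbtl1 and L3mbtl4 were nearly silent. L3mbtl1, a compactor of nucleosome arrays, had 107 reads over all 21 tumors, at most 34 in a tumor, with none in 3 tumors. L3mbtl4 had 17 reads over all tumors, at most 5 in a tumor, with none in 6 controls and 7 RhoC tumors. A count of 0 in a tumor allows at most 3 reads, which covers counting error only; neither gene passed the filter on low counts, so neither was tested in the main comparison.

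Scmh1, of the 3 tested members outside the L3MBTL group that carry MBT repeats, had the largest fitted difference in the main comparison and did not pass the test. With mouse as a random effect Sfmbt2 had the larger one in size, at -0.57 beside 0.56 for Scmh1 (log2). Scmh1 was at 16.8, 32.0 and 56.3 CPM in the lowest, median and highest control and at 30.0, 41.0 and 94.5 in RhoC tumors. The 2 RhoC tumors above every control were R-10 at 94.5 and R-1 at 68.6 CPM, and the remaining 10 lay within the control range. The means were 33.7 ± 12.3 (SD, n = 9) and 47.0 ± 18 (SD, n = 12), and the fold change was 0.48 (log2, SE 0.23, 95% interval 0.01 to 0.95), an unadjusted p of 0.0449 and an adjusted p of 0.234 (edgeR); 20.5% of all tested genes had an unadjusted p under 0.05.

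Sfmbt1 was at 29.1, 50.95 and 82.3 CPM in the lowest, median and highest control and at 33.1, 45.7 and 76.0 in RhoC tumors, so the cohorts covered nearly the same range. Its log2 fold change was -0.13 (SE 0.17, 95% interval -0.49 to 0.22, adjusted p = 0.673, edgeR). Sfmbt2 ran from 3.37 to 60.9 CPM in controls (median 20.1) and from 0.296 to 40.5 in RhoC tumors (median 21.95). Its means were 27.7 ± 18.6 (SD, n = 9) and 21.3 ± 10.6 (SD, n = 12), and its log2 fold change of -0.38 had an SE of 0.49 and an adjusted p of 0.681 (edgeR).

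One tumor stood far from the rest for Sfmbt2. R-21 held 20 Sfmbt2 reads, 0.296 CPM, while the other 11 RhoC tumors were at 8.67 to 40.5 CPM and every control was at 3.37 or above. Without R-21 the RhoC mean was 23.2 ± 8.71 (SD, n = 11). The 7 genes with readable levels within 0.5 Mb of Sfmbt2 had a median deviation of 0.47 in R-21, and Itih2, a neighbour that encodes a hyaluronan-binding heavy chain of the inter-alpha-inhibitors, was at 212 CPM there against at most 46.0 in any other tumor (this gene was chosen after its values were seen). Sfmbt2, at chr2:10370510-10595253 on the plus strand, contains 119 annotated miRNA genes on its own strand, whose short products this library type does not measure. The labels and the study's sample list differ on which tumor came from the mouse given for R-21.

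The partners of L3mbtl3 were the most abundant members. Kdm1a was at 58.25, 93.1 and 124 CPM in the lowest, median and highest control and at 37.0, 83.8 and 127 in RhoC tumors. The lowest RhoC values, 37.0 in R-21 and 40.6 in R-7, fell in the 2 RhoC tumors that were also lowest in L3mbtl3. Its means of 89.55 ± 21.6 (SD, n = 9) and 81.5 ± 26.3 (SD, n = 12) gave -0.14 on the log2 scale (SE 0.20, 95% interval -0.54 to 0.27, adjusted p = 0.716, edgeR).

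Rbpj was at 74.9, 94.25 and 160 CPM in the lowest, median and highest control and at 41.8, 83.5 and 136 in RhoC tumors. No RhoC tumor exceeded the highest control, and 2 of 12, R-12 and R-10, exceeded the control median. The means were 104 ± 28.2 (SD, n = 9) and 81.5 ± 28.9 (SD, n = 12), and the fold change was -0.35 (log2, SE 0.20, 95% interval -0.77 to 0.06, adjusted p = 0.316, edgeR). Taking the 6 tested members other than L3mbtl3 together, 0 of 6 passed the test in edgeR, against 0.223% of all genes. At an unadjusted p under 0.05 there was 1 of 6, against 20.5% of all genes, and DESeq2 called 0 of 6, against 6.24%. Their fold changes had a median of -0.14 on the log2 scale, beside -0.01 over all genes.

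**Figure D2:**
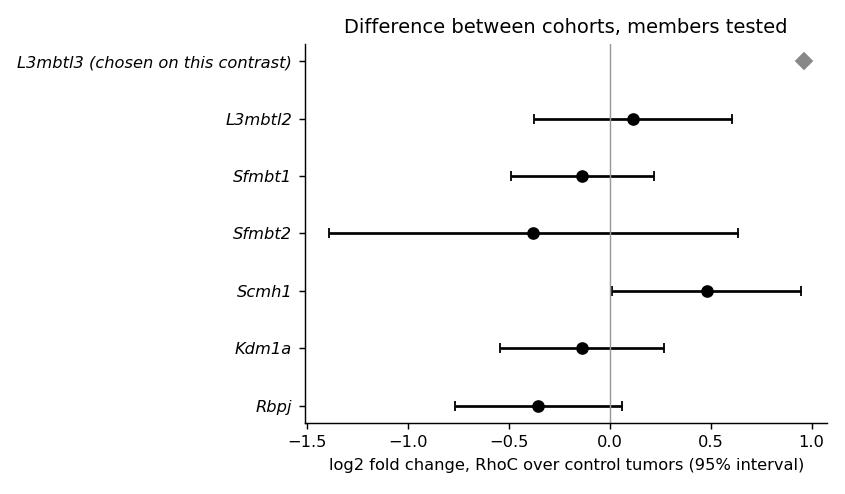
Log2 fold change of RhoC over control tumors (horizontal axis) with 95% intervals for 6 genes. The diamond is L3mbtl3 at 0.96, drawn without an interval because it was chosen on this contrast; the other 6 lie between -0.38 and 0.48, and the interval of Scmh1 starts just above 0.

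Levels can be set between genes only per length, for which the authors' FPKM were used. In controls the order was Kdm1a (28.1 ± 6.80 FPKM), Rbpj (13.3 ± 3.58), Sfmbt1 (6.40 ± 1.92), Scmh1 (4.32 ± 1.58), L3mbtl3 (4.02 ± 0.969), L3mbtl2 (3.74 ± 2.09), Sfmbt2 (3.01 ± 2.02) and L3mbtl1 (0.038 ± 0.0516), each a mean with its SD over 9 tumors. From Scmh1 to Sfmbt2 neighbours in this order differed by less than their SD. In the 12 RhoC tumors Kdm1a was at 25.6 ± 8.26 FPKM, Rbpj at 10.4 ± 3.64, L3mbtl3 at 7.85 ± 1.77, Scmh1 at 6.04 ± 2.30, Sfmbt1 at 5.83 ± 1.40, L3mbtl2 at 4.06 ± 0.991 and Sfmbt2 at 2.33 ± 1.17 (SD). Sfmbt1 exceeded L3mbtl3 in 8 of 9 controls and in 1 of 12 RhoC tumors, which follows from the choice of L3mbtl3. Kdm1a exceeded L3mbtl3 in all 21 tumors, with a median ratio of 6.84 in controls and 3.13 in RhoC tumors, and Rbpj exceeded it in 9 of 9 controls and 9 of 12 RhoC tumors. The lower ratio and count in RhoC tumors likewise reflect the choice of L3mbtl3. L3mbtl4 has no FPKM here.

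The Gata4 allele offered a contrast that played no part in the choice of L3mbtl3. Among controls, L3mbtl3 was at 20.2 ± 5.23 CPM (SD, n = 7) with the Gata4 loxP allele and at 15.2 and 19.65 CPM in N-15 and N-17 without it, which is 0.22 higher on the log2 scale (SE 0.28, adjusted p = 0.864, edgeR). This difference ran from 0.045 to 0.41 when N-15 or N-17 was left out, which leaves a single tumor without the allele. No member passed the test, against a background of 0.212% of all genes. L3mbtl2 had the smallest p, with a mean of 13.03 ± 4.19 CPM (SD) against 37.9 and 17.02. The fold change was -1.07 (log2, SE 0.34, adjusted p = 0.241, edgeR), and -0.38 without N-15. It was the 1 member with an unadjusted p under 0.05, where 9.67% of all genes had one.

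Within each cohort the variation of L3mbtl3 was compared with that of the other 6 tested members, with the tumors of a mouse summed (9 control and 8 RhoC mice, 12 relations, exact permutation of pairings, two-sided). No relation passed adjustment. In RhoC mice Kdm1a varied with L3mbtl3 at Pearson's r = 0.711 (exact p = 0.048, adjusted p = 0.231) and Spearman's rho = 0.571 (exact p = 0.151, adjusted p = 0.605), and r was 0.781 without the 2 mice farthest from the median of L3mbtl3. In control mice the same pair had r = 0.298 (exact p = 0.437, adjusted p = 0.656) and rho = 0.267 (exact p = 0.493, adjusted p = 0.658), with r = -0.259 without the 2 farthest mice. Whether the cohorts differ in this relation was not tested.

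Rbpj and L3mbtl3 had r = 0.643 (exact p = 0.077, adjusted p = 0.231) and rho = 0.714 (exact p = 0.0576, adjusted p = 0.605) in RhoC mice, and r = 0.759 without the 2 farthest. In control mice they had r = -0.046 (exact p = 0.908, adjusted p = 0.908) and rho = 0.0 (exact p = 1.0, adjusted p = 1.0), and r = -0.243 without the 2 farthest. Sfmbt1 ran the other way in both cohorts, with r = -0.725 (exact p = 0.0443, adjusted p = 0.231) and rho = -0.571 (exact p = 0.151, adjusted p = 0.605) in RhoC mice and r = -0.47 (exact p = 0.203, adjusted p = 0.406) and rho = -0.367 (exact p = 0.336, adjusted p = 0.658) in controls. Without the 2 farthest mice these fell to r = -0.145 and r = 0.088, so the relation rests on those mice.

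Sfmbt2 had the highest coefficient, r = 0.816 in RhoC mice (exact p = 0.0708, adjusted p = 0.231), with rho = 0.429 (exact p = 0.299, adjusted p = 0.658). In control mice r was 0.342 (exact p = 0.361, adjusted p = 0.62) and rho 0.117 (exact p = 0.776, adjusted p = 0.931), with r = 0.336 without the 2 farthest. In the RhoC cohort one of the 2 farthest mice is that of R-21, lowest in both genes; without them r was 0.899 over 6 mice. For L3mbtl2 and Scmh1 the adjusted p of r was between 0.406 and 0.89 in both cohorts by the exact permutation test, with r from -0.527 to 0.122. The lowest of these, for L3mbtl2 in RhoC mice, turned to 0.372 without the 2 farthest mice.

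**Figure D3:**
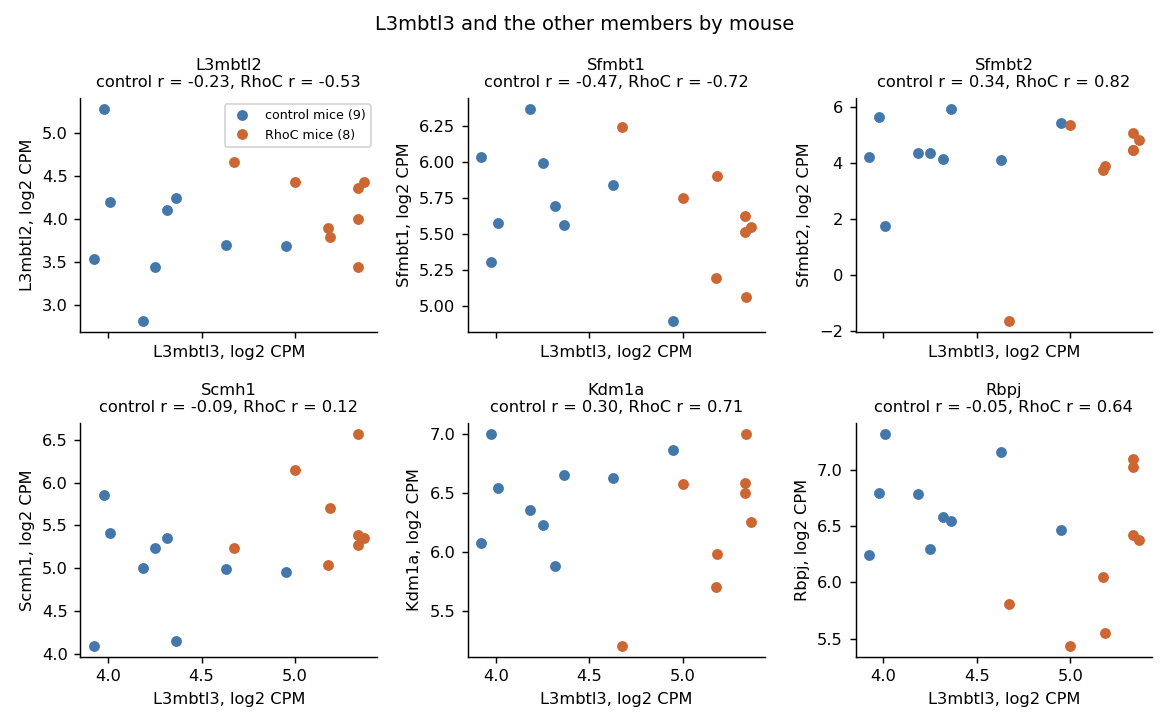
Each panel plots a member (vertical axis, log2 CPM) against L3mbtl3 (horizontal axis, log2 CPM), with a point for each of 9 control mice (blue) and 8 RhoC mice (orange) and Pearson's r for each cohort. In RhoC mice r is highest for Sfmbt2, Kdm1a and Rbpj, and the mouse of R-21 is the leftmost orange point in each panel and the lowest one for Kdm1a and Sfmbt2 but not for Rbpj; none of the 12 relations passed adjustment.

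Among 13913 genes with an average log2 CPM of at least 1 by edgeR, which a few high tumors can lift, the 5 whose pattern was most like that of L3mbtl3 over the 21 tumors, after each cohort was centred on its own mean, were Tchh (r = 0.788), Trp73 (r = 0.786), Ifitm10 (r = 0.784), Elovl4 (r = 0.779) and Zfp275 (r = 0.779). Tchh encodes trichohyalin, a structural protein of the hair follicle, Trp73 the p53 relative p73, and Elovl4 an elongase of very long fatty acids used in the skin barrier. None passed the test between the cohorts (adjusted p from 0.221 to 0.916, edgeR), and their levels were of different kinds. Elovl4 had medians of 2.33 CPM in controls and 1.53 in RhoC tumors, with maxima of 221 in N-1 and 219 in R-13, and Tchh and Trp73 had medians under 0.3 CPM in both cohorts. Zfp275 was read in every tumor, with medians of 13.9 and 25.2 CPM and ranges of 6.89 to 34.1 and 5.37 to 106. With the mean of log2 CPM over the tumors held to at least 1 instead, an alternative added after seeing the data, Tchh, Trp73 and Ifitm10 gave way to Afdn (r = 0.773), Ly6d (r = 0.764) and Maml3 (r = 0.76), a coactivator of Rbpj, while Elovl4 and Zfp275 stayed. In the first ranking, of 13913 genes, Kdm1a was at place 569 with r = 0.513, Sfmbt2 1519 with r = 0.385, Rbpj 3110 with r = 0.249, Scmh1 6352 with r = 0.025, L3mbtl2 9677 with r = -0.199 and Sfmbt1 12579 with r = -0.45. These coefficients share the tumors and the scaling of each library and are descriptions.

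Some summed marker levels of other cells varied with L3mbtl3 across control mice by Pearson's r, but none passed adjustment by Spearman's rho. Over 11 marker lists in the 2 cohorts (22 relations, exact permutation of pairings, a comparison added after the values were seen), summed T-cell markers fell as L3mbtl3 rose across the 9 control mice, with r = -0.911 (exact p = 0.000937, adjusted p = 0.0206), rho = -0.867 (exact p = 0.00451, adjusted p = 0.0992) and r = -0.75 without the 2 farthest mice. Macrophage markers had r = -0.86 (exact p = 0.00367, adjusted p = 0.0404) and rho = -0.583 (exact p = 0.108, adjusted p = 0.582), and B and plasma cell markers r = -0.814 (exact p = 0.00627, adjusted p = 0.046) and rho = -0.75 (exact p = 0.0255, adjusted p = 0.28). Both rest in part on the 2 farthest mice, without which r was -0.473 and -0.433. Scaling by the total count in place of TMM gave adjusted p of 0.0749, 0.159 and 0.0749 by the exact permutation test for T cells, macrophages and B and plasma cells.

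In the 8 RhoC mice the same lists had r of 0.141, 0.225 and 0.406 with L3mbtl3 (exact adjusted p from 0.671 to 0.831), rho of 0.31, 0.548 and 0.69 (exact adjusted p from 0.509 to 0.677), and r of 0.487, 0.743 and 0.344 without the 2 farthest mice; the difference between cohorts was not tested. T-cell markers were low in both cohorts, summing to 1.002 to 20.3 CPM in controls and 2.90 to 35.1 in RhoC tumors. Of their genes 0 of 6 passed the test between cohorts, against 0.223% of all genes. Macrophage markers summed to 128 to 829.1 CPM and 241 to 907, with 0 of 6 passing. B and plasma cell markers summed to 0.339 to 21.4 CPM in controls (median 5.93) and 0.125 to 8.67 in RhoC tumors (median 1.08); 0 of 3 tested genes passed, with Jchain at -2.76 (SE 0.86, adjusted p = 0.104, edgeR) and Mzb1 at -1.89 (SE 0.66, adjusted p = 0.13, edgeR). Fibroblast markers had r = -0.718 in controls (exact p = 0.0318, adjusted p = 0.175; rho = -0.333, exact p = 0.385, adjusted p = 0.659) and r = 0.664 in RhoC mice (exact p = 0.0622, adjusted p = 0.274; rho = 0.595, exact p = 0.132, adjusted p = 0.582), and 0.443 and 0.403 without the 2 farthest mice. Squamous keratinocyte markers had r = 0.454 in controls (exact p = 0.215, adjusted p = 0.549; rho = 0.35, exact p = 0.359, adjusted p = 0.659) and r = 0.405 in RhoC mice (exact p = 0.337, adjusted p = 0.675; rho = -0.024, exact p = 0.977, adjusted p = 0.977), which turned to -0.265 and -0.349 without the 2 farthest mice. Basal markers had r = 0.569 with L3mbtl3 in controls (exact p = 0.106, adjusted p = 0.389; rho = 0.483, exact p = 0.194, adjusted p = 0.609) and r = 0.511 in RhoC mice (exact p = 0.196, adjusted p = 0.549; rho = 0.357, exact p = 0.389, adjusted p = 0.659), which fell to 0.266 and 0.089 without the 2 farthest mice. The part of these cells in the level of L3mbtl3 was not tested.

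The genes around L3mbtl3 were looked at for their own difference between the cohorts. Of 18 tested genes within 2 Mb, 7 had positive and 11 negative fold changes, and 0 passed the test in edgeR, the smallest adjusted p being 0.166; with 0.223% of all genes called, a count of 0 among 18 sets them apart from no other genes. Their fold changes had a median of -0.16 (log2). The nearest on its 2 sides were Samd3, 2.3 kb away, at -0.24 (SE 0.66, adjusted p = 0.861), and Arhgap18, 378 kb away, at -0.18 (SE 0.19, adjusted p = 0.606).

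**Figure D4:**
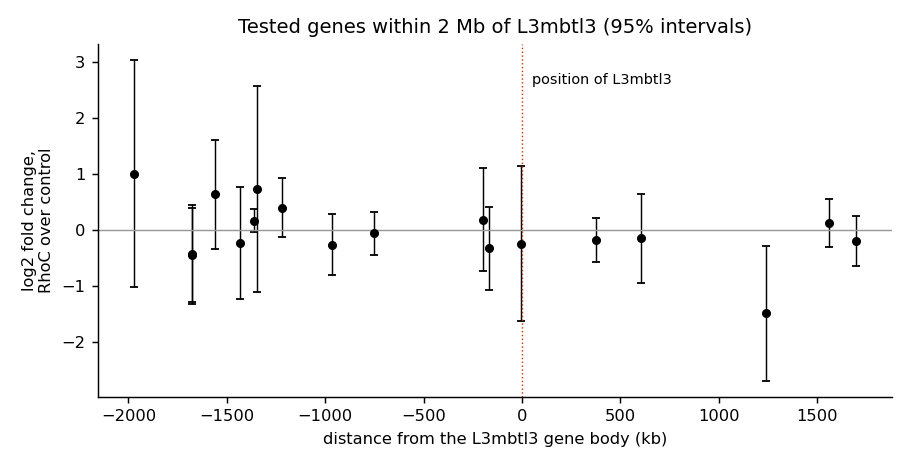
Log2 fold change of RhoC over control tumors (vertical axis) with 95% intervals for the 18 tested genes within 2 Mb of L3mbtl3, against their distance from its gene body in kb (horizontal axis). The dotted line marks the position of L3mbtl3, whose own value is left out because it was chosen on this contrast, and the points spread on both sides of 0 with a median of -0.16.

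Partner and pathway genes of the family were followed through 9 lists with 86 genes, of which 83 were tested. None passed the test in edgeR; 11 had an unadjusted p under 0.05 with a higher and 11 with a lower level in RhoC tumors, 22 in all, where 20.5% of all genes had such a p. The middle fold change of these 83 genes was -0.01 on the log2 scale, as was that of all genes.

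Notch target genes, which Rbpj and its corepressors can repress when Notch is not active, had 10 tested members. Of these, 7 had positive fold changes, as did 9577 of 19315 genes in all, and the median was 0.41. In the test 0 of 10 passed, against 0.223% of all genes. At an unadjusted p under 0.05 there were 3 of 10, all higher in RhoC tumors, against 20.5% of all genes (edgeR). Ccnd1, the cyclin of the G1 phase, was at 512 ± 291 CPM (SD, n = 9) in controls and 1000 ± 372 (SD, n = 12) in RhoC tumors, 0.97 higher on the log2 scale (SE 0.29, adjusted p = 0.0993, edgeR). Hes1, a repressor and direct Notch target, was at 42.2 ± 17.3 and 67.1 ± 19.9 CPM, or 0.67 higher (log2, SE 0.23, adjusted p = 0.128, edgeR). Ccnd1 and Hes1 thus had positive differences that missed the threshold across all genes.

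The Rbpj corepressors (10 tested) and coactivators (7 tested) had medians of -0.01 and -0.32. Cir1, a corepressor that binds Rbpj, and Ctbp1, a corepressor of the CtBP family, had the smallest p in the first list, with log2 fold changes of -0.48 (adjusted p = 0.214) and 0.26 (adjusted p = 0.228). Maml3, a Mastermind coactivator, and Kat2b, an acetyltransferase, had the smallest in the second, with -0.53 (adjusted p = 0.185) and -0.54 (adjusted p = 0.222). The Kdm1a-CoREST list (11 tested) had a median of -0.04 and was led by Hmg20b at 0.48 (SE 0.20, adjusted p = 0.185) and Zmym2 at -0.30 (SE 0.15, adjusted p = 0.27).

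Of the proteins that work with L3mbtl3 in the degradation of methylated proteins, 8 were tested, with a median of -0.07. Ddb1, the adaptor of the Cul4 ligase, was at 557 ± 110 CPM (SD, n = 9) in controls and 804 ± 168 (SD, n = 12) in RhoC tumors, a difference of 0.53 (log2, SE 0.15, adjusted p = 0.0886, edgeR), and the ligase scaffold Cul4b was at -0.43 (SE 0.18, adjusted p = 0.18). Partners of L3mbtl2 in its Polycomb complex (11 tested) had a median of -0.08; the DNA-binding pair Max and Mga had log2 fold changes of -0.41 (SE 0.12, adjusted p = 0.0897) and -0.37 (SE 0.13, adjusted p = 0.136).

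**Figure D5:**
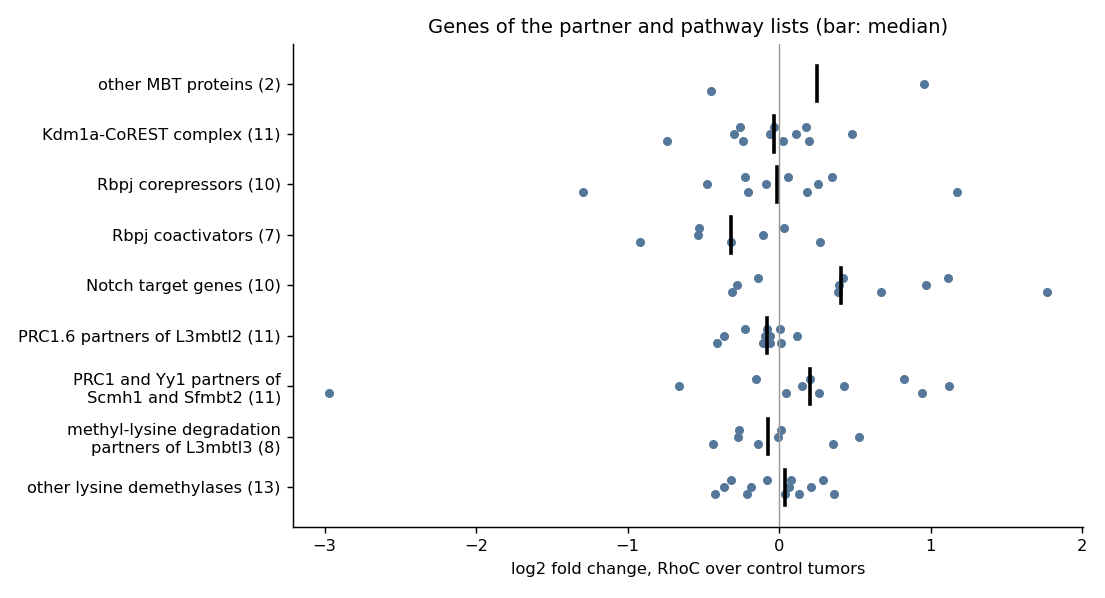
Log2 fold change of RhoC over control tumors (horizontal axis) for each tested gene of the 9 partner and pathway lists (rows, with the number of genes tested), and the median of each list as a bar. Medians lie between -0.32 and 0.41, and the point at -2.97 is Pcgf2, whose difference rests on 2 control tumors.

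Polycomb and Yy1 partners of Scmh1 and Sfmbt2 (11 tested) had a median of 0.20. Pcgf2, a ring-finger subunit of these complexes, had the smallest p of all 83 genes, at -2.97 on the log2 scale (SE 0.66, adjusted p = 0.0536, edgeR), but it was at 1039 CPM in N-8 and 483 in N-17; without these 2 controls it was at 30.6 ± 12.2 CPM (SD, n = 7) against 24.7 ± 4.30 (SD, n = 12). Cbx8, a chromodomain subunit, was at 9.04 ± 2.75 CPM and 19.7 ± 11.0, a difference of 1.12 (log2, SE 0.29, adjusted p = 0.0714, edgeR). Among 13 tested lysine demethylases other than Kdm1a the median was 0.04, with Kdm6a, a demethylase of histone H3 lysine 27, at -0.37 (SE 0.11, adjusted p = 0.106) and Kdm5b, one of histone H3 lysine 4, at 0.36 (SE 0.15, adjusted p = 0.19). The other MBT genes were Mbtd1, a subunit of the NuA4 acetyltransferase complex, at -0.45 (SE 0.18, adjusted p = 0.166) and Scml2, a Polycomb protein, at 0.95 (SE 0.53, adjusted p = 0.313).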

How the data were processed

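Total RNA of 21 mouse mammary tumors was sequenced. The authors deposited raw read counts per gene for each tumor and a table with FPKM values of the 21 tumors. Per the labels, reads were trimmed with Trim Galore, checked with FastQC, mapped to GRCm38 by STAR and assigned to genes by htseq-count; versions as listed by the submitters were 0.5.0, 0.11.5, 2.6.0c and 0.6.1p2. The strand setting of the counting was not given in the sources used here, and Kdm1a and L3mbtl2 overlap coding genes on the other strand (Luzp1 and Chadl), and reads over more than 1 gene were discarded, so an unstranded setting would have lost reads there. The fold changes and p-values of the authors' own comparisons, in the same table and in another table, were not used. Gene symbols came from the deposited table or the reference gene names.

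Counts were tested with edgeR 4.0.16 (R 4.3.3): TMM scaling, filterByExpr by cohort, quasi-likelihood test of RhoC against control, Benjamini-Hochberg adjustment over 19315 genes, threshold 0.05. CPM are TMM-scaled and log2 CPM use a prior count of 2. FPKM served only to order genes. DESeq2 1.42.0 and limma 3.58.1 gave alternatives. Tumors were the units, although 6 RhoC tumors share a mouse with another, so p-values over tumors are too small where tumors of a mouse resemble each other; alternatives sum or block by mouse. The correlations used mice. Members and lists were chosen with earlier results of these data known. Genes named were the 9 members, Rhoc, Erbb2 and Gata4, and in each partner and pathway list those past the threshold or else the 2 of smallest p. Also named were the nearest neighbour of L3mbtl3 on each side, any neighbour within 2 Mb past the threshold, and the 5 genes most like it. Of the markers, the basal list was named in full, and Jchain, Mzb1 and Krt10 for the smallest p in their lists. Others are said to be chosen after their values were seen. Methods were tested on simulated data. Libraries held 47309780 to 100741339 counts, so 3 counts are under 0.1 CPM, and intervals cover these tumors only. Alternatives were DESeq2, no filter, library-size scaling, summing or blocking by mouse, other sample sets, the replicate number as a block and leaving out each tumor.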

Additional observations from a re-analysis of the deposited data

Results flagged for a closer look

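Each of the 9 genes was checked for a control tumor far from the other 8 by Dixon's test on CPM. About 1 in 20 such groups is picked by chance where values are normally distributed, and 3 were picked. L3mbtl2 was at 37.9 CPM in control tumor N-15, far above the next control at 18.6 CPM. L3mbtl1 was at 0.492 CPM in control tumor N-3, from 34 reads, where the next control was at 0.20 CPM. L3mbtl4 was at 0.0833 CPM in control tumor N-7, from 5 reads, where the other controls had at most 1 read. For L3mbtl1 and L3mbtl4 the values rest on few reads and are skewed, so that chance rate does not hold for them. The RhoC cohort, with 12 tumors, was not checked in this way.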

How the results depend on the processing

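The log2 fold change of L3mbtl3 stayed between 0.86 and 0.97 under 9 alternatives and between 0.91 and 1.05 when any single tumor was dropped. Of the 6 other members tested in the main comparison, 0 were called under any of these alternatives, and without a filter L3mbtl1 and L3mbtl4 had adjusted p of 0.396 and 0.963 (edgeR). Of the uncalled members, those moved over 1.5 times were Kdm1a (-0.14 in the main comparison), at -0.06 without N-15, -0.07 without R-7 or R-21, -0.21 without R-10, -0.25 without P497 and -0.21 with mouse as a random effect or without the squamous tumors; Sfmbt2 (-0.38), at -0.14 without N-7, -0.23 without N-15 and -0.57 with mouse as a random effect; Sfmbt1 (-0.13), at -0.04 without N-4, -0.22 without N-9 and -0.21 without R-21; and L3mbtl2 (0.11), from 0.01 without N-4 to 0.38 without N-15, 0.25 with mouse as a random effect and 0.43 with the Gata4 loxP/+ controls. The number of genes called over the whole table, 43, was far less stable: 1206 with DESeq2, 27 with library-size scaling, 3 with counts summed over each mouse, 3 with mouse as a random effect, 438 with only the Gata4 loxP/+ controls, 3 when the 4 tumors from P497 were dropped, 26 when the 3 squamous carcinomas were dropped, and 14 to 346 when any single tumor was dropped (346 without N-15, 14 without N-9); the cause was not tested. Labels number the tumors, and 4 numbers occur in both cohorts, but same-numbered tumors did not deviate together (r of -0.237, -0.185, -0.003 and 0.022), so the numbers do not pair them. With the replicate number as a block 0 genes were called (edgeR; 1363 at an unadjusted p under 0.05), L3mbtl2 turned to -0.12, and Kdm1a, Sfmbt1, Sfmbt2 and Rbpj were at -0.48, -0.21, -0.72 and -0.65. In the Gata4 contrast 41 genes were called, 323 with DESeq2, 2 with the 9 controls alone and 54 to 97 when N-15 or N-17 was left out, an alternative added after seeing the data that leaves a single tumor in that arm, assumed to vary like the other groups; there Sfmbt2 ran from -0.90 to 0.56 and Kdm1a from -0.48 to 0.61, positive without N-15, Rbpj ran from -0.029 to 0.16, negative without N-17, and the median of all genes was 0.15 without N-17. Library-size scaling turned the r of L3mbtl3 in control mice with L3mbtl2 to 0.163, with Scmh1 to 0.14 and with Rbpj to 0.382. None of the 12 relations passed adjustment with a prior count of 0.5 or with library-size scaling. L3mbtl1 and L3mbtl4 had at most 34 and 5 reads in a tumor, which limits any comparison of them.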

Other observations

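Some single tumors held levels of neighbouring or partner genes that stood far from the rest, all chosen after their values were seen. Gata3, a luminal transcription factor and Notch target of the lists above, had 223 reads (3.23 CPM) in control N-3 and 43.2 CPM or more in the other 20 tumors. N-3 was also the lowest control for Sfmbt2, at 3.37 CPM, and both genes lie on chromosome 2. Nrarp, a Notch feedback inhibitor, was at 11.7 ± 7.99 CPM (SD, n = 9) in controls and 39.9 ± 57.2 (SD, n = 12) in RhoC tumors, with a maximum of 199.5 CPM and an adjusted p of 0.14 (edgeR).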
